A study of Mus musculus with 18 samples.

Results

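Livers of mice on a high-fat diet (HFD) that were given alginate oligosaccharide (HFD+AOS) were compared with livers of mice on the HFD alone. The comparison used 6 of the 18 livers of the series, 3 HFD+AOS and 3 HFD, and every gene that reached an RPKM of 1 in 3 or more of the 18 livers, which gave 10507 of 19057 lines of gene symbols. RPKM is the number of reads on a gene per kilobase of its length and scaled to the mapped reads of the library. All 18 livers were from ICR mice, an outbred strain, aged 10 weeks by the labels, and the study's methods describe male mice. Both groups ate the HFD, and by the labels the HFD+AOS mice also received AOS at 10 mg/kg. The route, the number of doses and the start of AOS in these mice are not given in the sources used here, nor are the hour of killing and the feeding state. The other livers came from mice on the regular diet (Con), on the regular diet with AOS at 10 mg/kg (AOS), and on the HFD with gut microbiota transferred from control mice (Con-FMT) or from AOS-dosed mice (A10-FMT). The study asked how gut microbiota changed by AOS act on mice fed the HFD, and the present contrast asks which liver transcripts differed when AOS itself was given on that diet.

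AOS are short chains cut from alginate, the gelling polysaccharide of brown algae, and are used as prebiotics. The liver stores glucose as glycogen, makes and burns fatty acids, secretes plasma proteins and clears cholesterol and bile acids. Many of its transcripts rise and fall over the day under a molecular clock. In that clock the factors BMAL1 (gene Arntl) and CLOCK, or NPAS2 in place of CLOCK, bind E-boxes and drive the genes of their own repressors, the PER, CRY and REV-ERB proteins, and of the PAR bZIP factors DBP, TEF and HLF. REV-ERB proteins repress Arntl in turn, so the level of Arntl is low when that of Dbp is high and the reverse. Feeding, fasting, insulin and glucocorticoids also act on these genes in the liver.

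The 6 livers were alike in the summaries below, of which summed RPKM is already scaled to the mapped reads. Summed RPKM went from 715841 to 763506, between 14707 and 14872 genes were above 0, and the 10 most abundant genes held 30.7% to 36.4% of the RPKM. The absolute depth is unknown without read numbers, as is the precision of a low value. The smallest step between low RPKM values, which stands for 1 read, differed little: over 142 genes its ratio to the middle library was 0.989 to 1.01 in these livers. HFD replicate 1 stood apart from the other HFD livers. Across the genes tested, its log2 difference from HFD+AOS replicate 2 had an SD of 0.318, against 0.323 from HFD replicate 2 and 0.343 from HFD replicate 3. Con replicate 3 lay between the other Con livers for 98.0% of 148 genes that told these apart, and AOS replicate 3 between the other AOS livers for 96.5% of 142 genes. Both libraries are thus not independent by their values, and they enter the estimate of the spread. Counts are therefore also given without them. The labels call the livers of a group only by number, so the p-values measure the spread between these livers.

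Hepatocyte markers were high in every liver, with albumin (Alb) at 30685 to 41363 RPKM in HFD and 35264 to 40007 RPKM in HFD+AOS. The 14 hepatocyte markers summed to 87000 to 95700 RPKM in HFD and to 94000 to 106000 RPKM in HFD+AOS, and 2 of them passed the test, Cebpa as higher and Hnf4a as lower (both named after their values were seen). Of the markers of other cells, 0 of 14 Kupffer cell and macrophage, 0 of 18 stellate cell, fibroblast and matrix, 0 of 14 endothelial, 0 of 5 T, NK and B cell and 0 of 3 neutrophil markers tested passed the test (limma), with 0, 2, 0, 0 and 0 at an unadjusted p under 0.05. Their summed RPKM in HFD and in HFD+AOS was 119 to 247 and 166 to 197 for Kupffer cells and macrophages, 186 to 205 and 175 to 234 for stellate cells and matrix, and 80.9 to 93.6 and 85.5 to 101 for endothelial cells. The lymphocyte markers summed to 6.49 to 8.31 and 7.32 to 9.91 RPKM, and the neutrophil markers to 3.26 to 7.53 and 2.81 to 5.07 RPKM, in the same order. Erythroid markers summed to 1280 to 3350 RPKM in HFD, where replicate 1 was the highest, and to 1070 to 1700 RPKM in HFD+AOS. In bulk liver, fewer cells of a type and less RNA per cell cannot be told apart.

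The remaining marker lists were small. Of 4 cholangiocyte markers tested, Sox9 was lower (named after its values were seen), and the 9 markers in the table summed to 28.9 to 34.7 RPKM in HFD and 30.8 to 39.1 RPKM in HFD+AOS. Adipocyte markers summed to 2540 to 3590 and 2640 to 4380 RPKM, nearly all from Car3, which hepatocytes also express, with Lep, Plin1 and Retn at 0 in the 6 livers. Lipe, which encodes hormone-sensitive lipase, passed the test, alone among the 3 adipocyte markers tested (named after its values were seen). Acinar pancreas markers summed to 32.6 to 53.4 and 45.0 to 49.6 RPKM with 5 of 13 at 0, skeletal muscle markers to 0.23 to 1.33 and 0.37 to 0.80 RPKM with 6 of 10 at 0, and gut epithelium markers to 66.0 to 91.7 and 78.8 to 105 RPKM with 4 of 10 at 0. Gall bladder and mesothelium markers summed to 294 to 412 RPKM in HFD and 244 to 269 RPKM in HFD+AOS, and 0 of 4 tested passed the test (limma), with 3 at an unadjusted p under 0.05. Of the acinar, muscle and gut markers 1, 1 and 2 were tested, and 0 passed the test or had an unadjusted p under 0.05. The part of these cells in the results below was not tested.

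Between HFD+AOS and HFD livers, 919 of the 10507 genes passed the test with an adjusted p below 0.05 (8.75%). Among them, 438 (4.17%) were higher and 481 (4.58%) lower in HFD+AOS. Values were compared as log2(RPKM + 1) with limma, two-sided, in a single fit of the 6 group means to all 18 livers, and p-values were adjusted by Benjamini-Hochberg over the whole table. Fold changes on this scale understate the change of genes at low RPKM. Without the third Con and AOS livers, 496 genes changed, 261 higher and 235 lower. The 3 livers of a group all lay above the 3 of the other for 2860 genes (27.2%), and for 901 of the 919. Most changes were small: the median absolute log2 fold change of the 919 genes was 0.47, and 84 reached an absolute log2 fold change of 1, 38 higher and 46 lower. The thresholds that the study's methods state for its own test, an FDR up to 0.001 together with a log2 fold change of 1 or more in size, left 35 genes (0.333%), 14 higher and 21 lower. The median log2 fold change over all genes tested was -0.007.

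Setting the medians of the libraries equal gave 659 genes higher and 628 lower. The counts also moved with single livers. They were 320 without HFD replicate 3, 322 without HFD+AOS replicate 1, 440 without HFD replicate 2, 538 without HFD+AOS replicate 2 and 618 without HFD+AOS replicate 3, but 1282 without HFD replicate 1. A core of 209 genes, 106 higher and 103 lower, was changed in the main fit and in all 14 alternatives.

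**Figure D1:**
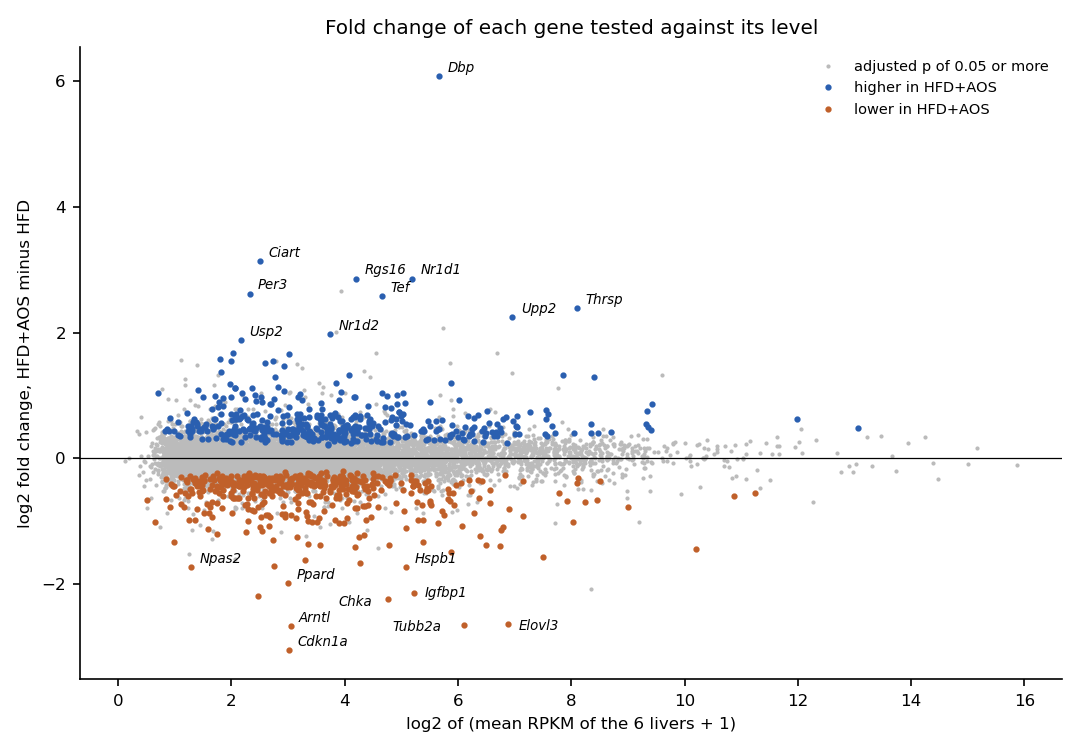
Each point is 1 of the 10507 genes tested, with its mean level in the 6 livers (log2 of RPKM + 1) on the x axis and its log2 fold change, HFD+AOS minus HFD, on the y axis. Genes higher in HFD+AOS at an adjusted p under 0.05 are blue (438), genes lower are orange (481), and the names mark genes with the largest changes in each direction, with Dbp at 6.09 and Cdkn1a at -3.06.

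The largest group of large changes was in the clock genes. The list of clock repressors and PAR bZIP outputs had 15 genes tested, of which 11 rose and 1 fell in HFD+AOS, against 8.75% of all genes changed in either direction. Its median log2 fold change was 1.68. In the list of genes of the BMAL1 phase, 5 of 7 tested fell and 1 rose, with a median of -1.67. Without the third Con and AOS livers the same counts were 11 and 1, and 5 and 0. Bhlhe41, 1 of the 11 that rose, met the low-value filter only through the HFD+AOS livers. The members of both lists were chosen with earlier results of these data known.

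Promoter sequences of 4 of these genes are given because they hold the letters that the clock factors are known to read. The capitals mark E-boxes (CACGTG, read by BMAL1 with CLOCK) and D-boxes (TTANNTAA, read by DBP, TEF, HLF and, as a repressor, NFIL3). Each runs 5′ to 3′ on the strand of its gene and ends before the first base of the gene in RefSeq, build GRCm38.p6. They are Ciart at chr3:95882258-95882478 on the minus strand, Per3 at chr4:151044708-151044915 on the minus strand, Tef at chr15:81802423-81802672 on the plus strand and Cry1 at chr10:85185055-85185304 on the minus strand.
Ciart: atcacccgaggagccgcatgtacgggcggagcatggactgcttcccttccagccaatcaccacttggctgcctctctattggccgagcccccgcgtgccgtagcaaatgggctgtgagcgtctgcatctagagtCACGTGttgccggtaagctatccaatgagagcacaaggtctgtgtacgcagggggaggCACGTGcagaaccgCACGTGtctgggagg
Per3: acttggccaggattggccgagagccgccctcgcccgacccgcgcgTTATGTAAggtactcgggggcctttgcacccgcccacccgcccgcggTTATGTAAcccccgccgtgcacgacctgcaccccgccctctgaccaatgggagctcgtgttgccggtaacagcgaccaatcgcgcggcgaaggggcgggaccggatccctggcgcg
Tef: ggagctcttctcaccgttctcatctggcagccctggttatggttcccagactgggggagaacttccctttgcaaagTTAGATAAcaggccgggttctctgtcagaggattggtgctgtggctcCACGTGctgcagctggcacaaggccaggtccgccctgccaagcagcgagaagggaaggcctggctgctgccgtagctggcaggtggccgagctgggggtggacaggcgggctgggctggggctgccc
Cry1: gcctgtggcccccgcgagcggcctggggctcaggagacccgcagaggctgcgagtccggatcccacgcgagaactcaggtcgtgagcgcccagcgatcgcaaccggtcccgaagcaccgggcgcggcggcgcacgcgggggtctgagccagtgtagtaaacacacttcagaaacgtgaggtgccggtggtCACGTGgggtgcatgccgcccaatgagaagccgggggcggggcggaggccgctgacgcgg
Counted from the listed start of transcription, the E-boxes of Ciart began at -116, -58 and -44, the D-boxes of Per3 at -205 and -158, the D-box of Tef at -174 and its E-box at -127, and the E-box of Cry1 at -60. For Ciart and Per3 the listed start lies inside the RefSeq span of the gene. The stretches shown for them, of 221 and 208 bases, therefore end before that start. Both motifs read the same on either strand and did not overlap here. In windows from 250 bases before to 50 after the start, an E-box was found in 4 of 13 genes of the repressor list that have a window, in 1 of 5 of the BMAL1-phase list and in 10.5% of the 8374 tested genes that have one. D-boxes were found in 2 of 13, 0 of 5 and 3.69%. Over all genes higher and all genes lower in HFD+AOS, E-boxes were in 12.3% and 11.3% of windows. A match is a run of letters and not a binding site.

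Of the activators, Arntl (chr7:113178471-113314126), which encodes BMAL1, was at 12.1, 14.6 and 13.2 RPKM in the HFD livers and at 1.18, 1.23 and 1.32 RPKM in the HFD+AOS livers. Its log2 fold change was -2.67 (SE 0.22, adjusted p = 6.38e-06, limma). All HFD+AOS livers were far below all HFD livers, and the HFD livers were close to Con, where Arntl was at 10.1, 12.9 and 12.2 RPKM. Npas2, a partner of BMAL1, was at 2.64, 2.65 and 2.95 RPKM in HFD and at 0.11, 0.06 and 0.19 RPKM in HFD+AOS (log2 fold change -1.74, SE 0.15, adjusted p = 8.29e-06, limma). Clock, the other partner, was at 6.04, 6.80 and 7.32 RPKM in HFD and at 2.26, 2.70 and 2.93 RPKM in HFD+AOS (log2 fold change -1.09, SE 0.14, adjusted p = 0.000227, limma). The 3 genes of the activating arm were thus lower in every HFD+AOS liver.

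Nfil3, a repressor at D-boxes, was at 26.8, 28.9 and 29.8 RPKM in HFD and at 8.85, 9.25 and 6.76 RPKM in HFD+AOS (log2 fold change -1.67, SE 0.15, adjusted p = 1.25e-05, limma). Cry1, the late repressor of the loop, was at 8.41, 8.47 and 10.96 RPKM in HFD and at 2.13, 2.06 and 2.18 RPKM in HFD+AOS (log2 fold change -1.71, SE 0.29, adjusted p = 0.00283, limma). Both groups of livers were apart for both genes. Bhlhe40, which encodes the E-box repressor DEC1, went the other way, from 20, 18.3 and 18.4 RPKM in HFD to 33.4, 35.1 and 50.5 RPKM in HFD+AOS (adjusted p = 0.0297, limma), but did not pass the test without the third Con and AOS livers.

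Among the repressors and outputs, Dbp (chr7:45705100-45710203) had the largest change of all genes tested. It was at 0.56, 0.27 and 0.59 RPKM in HFD and at 112, 88.9 and 97.8 RPKM in HFD+AOS (log2 fold change 6.09, SE 0.51, adjusted p = 6.38e-06, limma). Tef was at 8.68, 5.42 and 5.12 RPKM in HFD and at 44.4, 40.5 and 42.0 RPKM in HFD+AOS (log2 fold change 2.58, SE 0.26, adjusted p = 3.54e-05, limma). Hlf, the third PAR bZIP gene, changed less, from 6.5, 5.26 and 6.6 RPKM to 9.69, 11.03 and 10.9 RPKM (log2 fold change 0.70, SE 0.12, adjusted p = 0.00252, limma). All 3 were higher in every HFD+AOS liver than in any HFD liver, with sizes that went from 0.70 to 6.09.

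Ciart, which encodes a repressor of BMAL1 with CLOCK, was at 0.05, 0.20 and 0.20 RPKM in HFD and at 7.21, 9.82 and 10.7 RPKM in HFD+AOS (log2 fold change 3.14, SE 0.20, adjusted p = 2.81e-07, limma). Per3 was at 0.44, 0.38 and 0.38 RPKM in HFD and at 7.77, 6.60 and 8.47 RPKM in HFD+AOS (log2 fold change 2.62, SE 0.23, adjusted p = 1.15e-05, limma). The other Period genes did not pass the test. Per1 was at 0.56, 1.54 and 2.53 RPKM in HFD and at 3.62, 2.40 and 5.02 RPKM in HFD+AOS, with an adjusted p of 0.145 (limma) and overlapping groups. Per2 was at 2.71, 2.22 and 3.56 RPKM in HFD and at 5.62, 4.92 and 6.21 RPKM in HFD+AOS, without overlap but with an adjusted p of 0.119 (limma). Both are also targets of glucocorticoids or feeding in the liver. Cry2 rose from 6.21, 5.27 and 4.02 RPKM to 10.9, 11 and 10.9 RPKM (log2 fold change 0.97, SE 0.16, adjusted p = 0.00222, limma), opposite to Cry1.

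Nr1d1, which encodes REV-ERBα, was at 21.7, 7.35 and 2.12 RPKM in HFD and at 70.1, 56.8 and 54.4 RPKM in HFD+AOS (log2 fold change 2.86, SE 0.62, adjusted p = 0.0117, limma). The HFD livers differed among themselves about as much on a log scale as they differed from the HFD+AOS livers, with replicate 1 the highest, and the gene failed the test in 1 of 14 alternatives. Nr1d2, which encodes REV-ERBβ, was at 6.32, 4.99 and 2.55 RPKM in HFD and at 20.4, 18.1 and 21.9 RPKM in HFD+AOS (log2 fold change 1.97, SE 0.22, adjusted p = 9.41e-05, limma). Bhlhe41, a gene related to Bhlhe40, was nearly silent in HFD at 0.01 to 0.15 RPKM and at 1.06 to 1.29 RPKM in HFD+AOS. Of the other livers, only A10-FMT replicate 1 reached an RPKM of 1 (1.83 RPKM). The gene thus met the filter for testing only through HFD+AOS, and its call adds no support. Of the further outputs, Wee1, a kinase that holds back mitosis, rose from 0.83 to 1.01 RPKM to 4.78 to 5.66 RPKM, and Usp2, a ubiquitin protease, from 0.61 to 1.55 RPKM to 5.81 to 6.32 RPKM. Leo1 fell from 6.36 to 6.78 RPKM to 2.24 to 3.31 RPKM. Tspan4 did not pass the test (adjusted p = 0.260, limma), and Rorb was at 0 in the 6 livers.

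**Figure D2:**
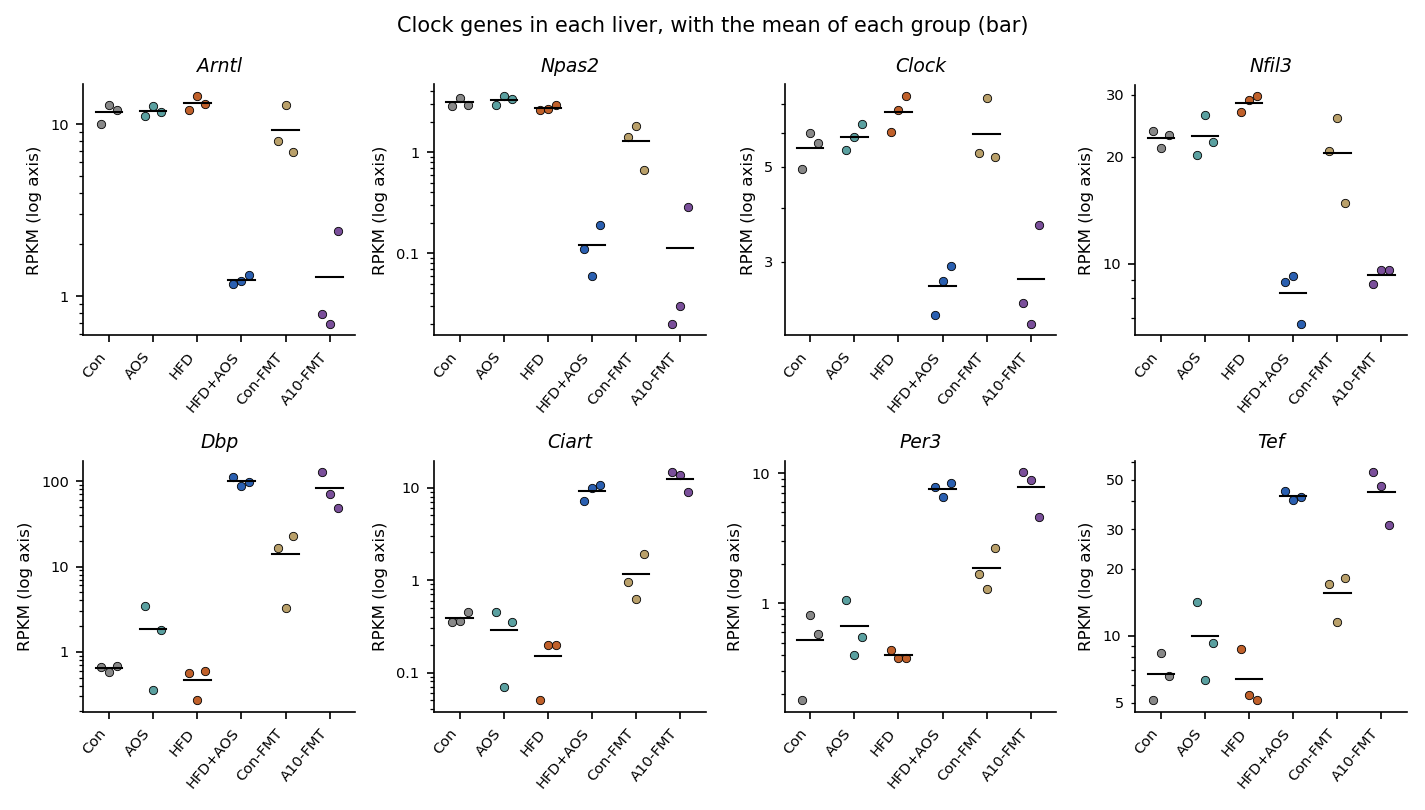
The level of 8 clock genes in each of the 18 livers (RPKM on a log axis), with a bar at the mean of each group of 3. Arntl, Npas2, Clock and Nfil3 were low, and Dbp, Ciart, Per3 and Tef high, in all 3 HFD+AOS livers, while the HFD livers lay near the Con livers.

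In A10-FMT livers Arntl was at 0.79, 0.69 and 2.41 RPKM and Dbp at 127, 70.8 and 49.2 RPKM, neither overlapping with HFD, while Nr1d1, at 62.5, 15.3 and 35.9 RPKM, overlapped with it. In Con-FMT livers Arntl was at 8.02, 12.97 and 6.94 RPKM, overlapping with HFD. Dbp was at 16.5, 3.24 and 22.6 RPKM there, above every HFD liver. Ciart (0.63 to 1.9 RPKM), Per3 (1.29 to 2.64 RPKM) and Tef (11.48 to 18.05 RPKM) were also above every HFD liver in Con-FMT. Npas2 (0.67 to 1.83 RPKM) and Nfil3 (14.85 to 25.85 RPKM) were below every HFD liver, while Clock overlapped with HFD. The contrasts of these groups with HFD share the HFD livers with the present one. As the hour of killing is not given, a difference in the hour between groups and an effect of AOS cannot be told apart.

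The genes with the largest changes outside the clock lists were a mixed group. The hour of killing and the feeding state are not given for these livers. For these and the metabolic genes below, a difference in either and an effect of AOS cannot be told apart. Upp2 (chr2:58566317-58795846), which encodes a liver uridine phosphorylase that breaks down uridine, was at 30.2, 52.3 and 46.9 RPKM in HFD and at 199, 201 and 212 RPKM in HFD+AOS (log2 fold change 2.25, SE 0.34, adjusted p = 0.000995, limma). Rgs16, which encodes a regulator of G protein signalling, was at 2.19, 4.78 and 3.67 RPKM in HFD and at 35.1, 28.0 and 30.8 RPKM in HFD+AOS (log2 fold change 2.86, SE 0.64, adjusted p = 0.0141, limma). All HFD+AOS livers were above all HFD livers for both genes.

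On the lower side, Cdkn1a (chr17:29090979-29100722), which encodes the cell cycle inhibitor p21, was at 11.99, 11.8 and 16.5 RPKM in HFD and at 0.91, 0.51 and 0.73 RPKM in HFD+AOS (log2 fold change -3.06, SE 0.29, adjusted p = 1.62e-05, limma). It was the largest fall of all genes called. Chka (chr19:3851585-3894369), which encodes a choline kinase at the head of phosphatidylcholine synthesis, was at 38.9, 48.1 and 45.3 RPKM in HFD and at 8.91, 7.73 and 8.67 RPKM in HFD+AOS (log2 fold change -2.25, SE 0.14, adjusted p = 2.81e-07, limma). For these genes the HFD+AOS livers held a small part of the level of every HFD liver, and each passed the test in the main fit and in all 14 alternatives.

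Tubb2a, a beta tubulin gene, fell from 68.2, 153 and 133 RPKM to 18.3, 13.02 and 20.4 RPKM (log2 fold change -2.65, SE 0.47, adjusted p = 0.00331, limma). Ppard, which encodes the nuclear receptor PPARδ, fell from 6.31, 13.6 and 15.8 RPKM to 2.26, 1.78 and 2.17 RPKM (log2 fold change -1.99, SE 0.25, adjusted p = 0.000230, limma). For both, HFD replicate 1 was the lowest of the HFD livers and still above the HFD+AOS livers. Of the list of p53 and growth arrest genes, 1 of 17 rose and 1 fell, with a median of -0.03. The share changed, 11.8%, was near the 8.75% of all genes. The riser was Gadd45a, which went from 2.92, 1.53 and 2.12 RPKM to 8.24, 7.75 and 7.79 RPKM (log2 fold change 1.51, SE 0.15, adjusted p = 2.99e-05, limma). Cdkn1a was the member that fell, and the other 15 members did not pass the test. No member of the cell cycle list passed the test (0 of 16 by limma, 3 at an unadjusted p under 0.05, with the smallest in Tk1, adjusted p = 0.12).

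Genes of glycogen and glucose metabolism changed in both directions. Of 35 tested, 4 rose and 3 fell, and the median of the list was 0.08. Gys2 (chr6:142422612-142473130), the liver glycogen synthase, was at 32.5, 37.7 and 33.4 RPKM in HFD and at 80.2, 79.9 and 81.8 RPKM in HFD+AOS (log2 fold change 1.20, SE 0.15, adjusted p = 0.000269, limma). Ugp2, which makes the UDP-glucose that glycogen synthase uses, rose from 79.3, 85.4 and 85.0 RPKM to 121, 116 and 128 RPKM (log2 fold change 0.54, SE 0.11, adjusted p = 0.00603, limma). Ppp1r3c (chr19:36731731-36736604), which targets protein phosphatase 1 to glycogen, fell from 61.4, 58.5 and 54.6 RPKM to 21.2, 28.5 and 19.0 RPKM (log2 fold change -1.33, SE 0.21, adjusted p = 0.00164, limma). Synthase and targeting subunit thus moved apart, each without overlap between the groups.

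The kinases of pyruvate dehydrogenase also moved apart. Pdk2 rose from 42.2, 39.7 and 31.8 RPKM to 59.4, 56.8 and 56.9 RPKM (log2 fold change 0.60, SE 0.11, adjusted p = 0.00476, limma), and Pdk4, which is induced by fasting, fell from 2.18, 3.64 and 3.65 RPKM to 1.17, 0.61 and 0.86 RPKM (log2 fold change -1.13, SE 0.23, adjusted p = 0.00826, limma). G6pc, the last enzyme of glucose output, was at 149, 271 and 386 RPKM in HFD and at 59.8, 59.6 and 158 RPKM in HFD+AOS. The groups overlapped, since HFD+AOS replicate 3 was above HFD replicate 1, and G6pc passed the test (log2 fold change -1.58, SE 0.35, adjusted p = 0.0137, limma) but not in 4 of the 14 alternatives.

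In the list of insulin signalling and the growth hormone axis, 5 of 38 rose and 3 fell, with a median of 0.09. The share changed was 21.1%, beside 8.75% of all genes, and 3 rose and 1 fell without the third Con and AOS livers. Igfbp1, a binding protein of insulin-like growth factors that insulin represses, was at 11.2, 42.2 and 139 RPKM in HFD and at 8.46, 6.66 and 10.9 RPKM in HFD+AOS (log2 fold change -2.14, SE 0.61, adjusted p = 0.0414, limma). Its HFD values spread widely, the lowest of them was near the HFD+AOS livers, and it passed the test in 6 of the 14 alternatives. Trib3, a pseudokinase of stress and insulin signalling, rose from 2.68, 3.31 and 1.34 RPKM to 6.76, 8.94 and 10.9 RPKM (adjusted p = 0.0152, limma). Lect2, a hepatokine, rose from 93.3 to 110 RPKM to 139 to 177 RPKM, and Igfbp4 from 543 to 608 RPKM to 723 to 868 RPKM. Stat5b, which carries the growth hormone signal, fell from 14.5 to 15.6 RPKM to 10.3 to 12.1 RPKM. Fgf21, a hepatokine of fasting, did not pass the test (log2 fold change -0.37, adjusted p = 0.362, limma).

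Of 22 glucocorticoid receptor targets tested, 1 rose and 4 fell (22.7% changed, beside 8.75% of all genes), and the median was -0.10. Zbtb16 fell from 1.84, 1.69 and 2.01 RPKM to 0.74, 0.55 and 0.67 RPKM (log2 fold change -0.78, SE 0.15, adjusted p = 0.00523, limma). Tsc22d3, which encodes the glucocorticoid-induced leucine zipper, fell from 43.9, 67.4 and 88.1 RPKM to 26.2, 27.3 and 39.9 RPKM (adjusted p = 0.0435, limma), while Tdo2, which degrades tryptophan, was higher in every HFD+AOS liver (adjusted p = 0.0454, limma). G6pc and Igfbp1 are members of this list too. Without the third Con and AOS livers, 2 members fell and 0 rose, and Tsc22d3, Tdo2 and Igfbp1 were among those lost.

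Lipid genes changed in synthesis, oxidation and storage, and the counts are read beside 8.75% of all genes changed and 5115 of 10507 above 0. Of 27 genes of fatty acid synthesis and desaturation, 2 rose and 1 fell, with a median of 0.06. Thrsp (chr7:97412933-97417550), a lipogenic gene that insulin and thyroid hormone induce, was at 52.0, 95.8 and 106 RPKM in HFD and at 425, 269 and 695 RPKM in HFD+AOS (log2 fold change 2.39, SE 0.49, adjusted p = 0.00826, limma). Srebf1, which encodes the lipogenic factor SREBP-1, rose from 42.6, 44.4 and 44.3 RPKM to 87.3, 83.4 and 79.6 RPKM (log2 fold change 0.92, SE 0.20, adjusted p = 0.0136, limma). Elovl3 (chr19:46131897-46135694), an elongase of very long chain fatty acids, fell from 250, 174 and 183 RPKM to 25.2, 26.5 and 45.3 RPKM (log2 fold change -2.64, SE 0.29, adjusted p = 8.70e-05, limma). The main lipogenic enzymes downstream of SREBP-1 varied widely between livers of a group. Scd1 was at 19.3, 177 and 215 RPKM in HFD and at 538, 48.1 and 304 RPKM in HFD+AOS (adjusted p = 0.479, limma), and Fasn at 19.8, 37.2 and 44.9 RPKM in HFD and at 38.9, 22.3 and 52.0 RPKM in HFD+AOS (adjusted p = 0.872, limma). For both the groups overlapped.

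Of 50 genes of fatty acid oxidation and ketogenesis, 5 rose and 2 fell, the median was 0.17, and 40 of the 50 had a log2 fold change above 0. The share that changed was 14.0%, and 4 rose and 1 fell without the third Con and AOS livers. Cpt1a, which admits fatty acids to mitochondria, rose from 75.6, 52.0 and 56.9 RPKM to 98.0, 87.2 and 112 RPKM (log2 fold change 0.69, SE 0.13, adjusted p = 0.00388, limma). Acaa1a, a peroxisomal thiolase, rose from 91.7, 102 and 73.6 RPKM to 135, 136 and 144 RPKM (log2 fold change 0.65, SE 0.13, adjusted p = 0.00754, limma), and Bdh1, which makes hydroxybutyrate, from 86.7 to 93.0 RPKM to 119 to 129 RPKM (adjusted p = 0.0114, limma). The Cyp4a genes, standard targets of PPARα, did not pass the test. Cyp4a14 was at 10.6 to 17.1 RPKM in HFD and 2.07 to 18.5 RPKM in HFD+AOS, and Cyp4a10 at 11.6 to 36.7 RPKM in HFD and 5.46 to 19.9 RPKM in HFD+AOS. Both spread more within HFD+AOS than the genes that rose.

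Genes of triglyceride assembly and lipid droplets gave 5 higher and 2 lower of 37 (18.9% changed), with a median of 0.18 and 26 of the 37 above 0. Without the third Con and AOS livers 3 were higher and 0 lower. Dgat2, the last step of triglyceride synthesis, rose from 165, 125 and 151 RPKM to 233, 231 and 248 RPKM (log2 fold change 0.70, SE 0.12, adjusted p = 0.00331, limma). Lpin2, the step before it, rose from 14.2, 16.5 and 17.2 RPKM to 23.7, 22.0 and 28.9 RPKM (log2 fold change 0.60, SE 0.12, adjusted p = 0.00692, limma). Pnpla2, the lipase that starts triglyceride breakdown, rose too, from 18.8 to 20.5 RPKM to 26.6 to 29.5 RPKM (adjusted p = 0.0128, limma). Apob, the protein of very low density lipoprotein, fell from 404 to 417 RPKM to 304 to 330 RPKM (adjusted p = 0.0253, limma) but not in 6 of the 14 alternatives. Genes of synthesis and of breakdown both rose. Of 26 genes of cholesterol synthesis, none changed (0 by limma, 1 at an unadjusted p under 0.05), and Ggps1 had the smallest unadjusted p (adjusted p = 0.106, limma). The median of that list was -0.02.

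Bile acids carry cholesterol out of the liver and help the gut to absorb fat and vitamin A. Of 28 bile acid genes tested, 4 rose and 0 fell, with a median of 0.14. Of all genes tested, 4.17% rose and 4.58% fell. Without the third Con and AOS livers, 3 of the bile acid genes rose and 0 fell. The sterol export pair rose together: Abcg8 (chr17:84676302-84700333) went from 18.1, 13.2 and 15.8 RPKM to 32.6, 33.8 and 32.9 RPKM (log2 fold change 1.04, SE 0.14, adjusted p = 0.000426, limma), and Abcg5 (chr17:84658174-84683011) from 23.2, 21.6 and 23.5 RPKM to 40.9, 41.2 and 45.7 RPKM (log2 fold change 0.88, SE 0.13, adjusted p = 0.00111, limma). Their products form 1 transporter that moves cholesterol into bile. On the regular diet, Abcg8 was at 20.4, 21.6 and 20.8 RPKM in AOS and at 11.2, 11.3 and 10.9 RPKM in Con, so that these groups did not overlap either. Osbpl3, which encodes an oxysterol-binding protein, rose from 0.41 to 0.78 RPKM to 1.42 to 4.09 RPKM (adjusted p = 0.0172, limma). Nr1h4, which encodes the bile acid receptor FXR, rose from 63.4, 73.4 and 58.6 RPKM to 85.0, 81.2 and 87.3 RPKM (log2 fold change 0.38, SE 0.11, adjusted p = 0.0378, limma) and failed the test in 8 of the 14 alternatives.

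The enzymes of bile acid synthesis did not pass the test. Cyp7a1, the rate-limiting enzyme, was at 8.63, 20.3 and 66.7 RPKM in HFD and at 22.6, 28.2 and 50.2 RPKM in HFD+AOS (adjusted p = 0.656, limma). Cyp8b1, which makes cholic acid, was at 313, 203 and 206 RPKM in HFD and at 237, 232 and 223 RPKM in HFD+AOS (adjusted p = 0.931, limma). Nr0b2, which encodes the repressor SHP downstream of FXR, was at 36.7 to 57.8 RPKM in HFD and 32.2 to 57.4 RPKM in HFD+AOS (adjusted p = 0.961, limma). For all 3 the livers of the groups overlapped, and the spread of Cyp7a1 within HFD alone was wide.

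Among 30 retinoid genes tested, 1 rose and 2 fell, with a median of 0.12. The share changed, 10.0%, was near the 8.75% of all genes. Rdh9, a retinol dehydrogenase that is also female-biased, rose from 7.86, 8.70 and 9.08 RPKM to 20.7, 18.3 and 31.1 RPKM (log2 fold change 1.32, SE 0.23, adjusted p = 0.00331, limma). Cyp26a1, which degrades retinoic acid, was at 17.9, 10.49 and 11.2 RPKM in HFD and at 1.06, 3.24 and 9.41 RPKM in HFD+AOS (adjusted p = 0.0403, limma), and Stra6l, a receptor that takes up retinol from its carrier, fell from 62.1 to 70.6 RPKM to 43.0 to 50.04 RPKM (adjusted p = 0.0239, limma). Neither fall passed the test without the third Con and AOS livers. Rbp4, which carries retinol in plasma, was higher in every HFD+AOS liver, at 3377 to 3660 RPKM against 2615 to 3042 RPKM, with an adjusted p of 0.0565 (limma). Dhrs9 was at 0.13 RPKM or less in the 6 livers and was not tested.

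**Figure D3:**
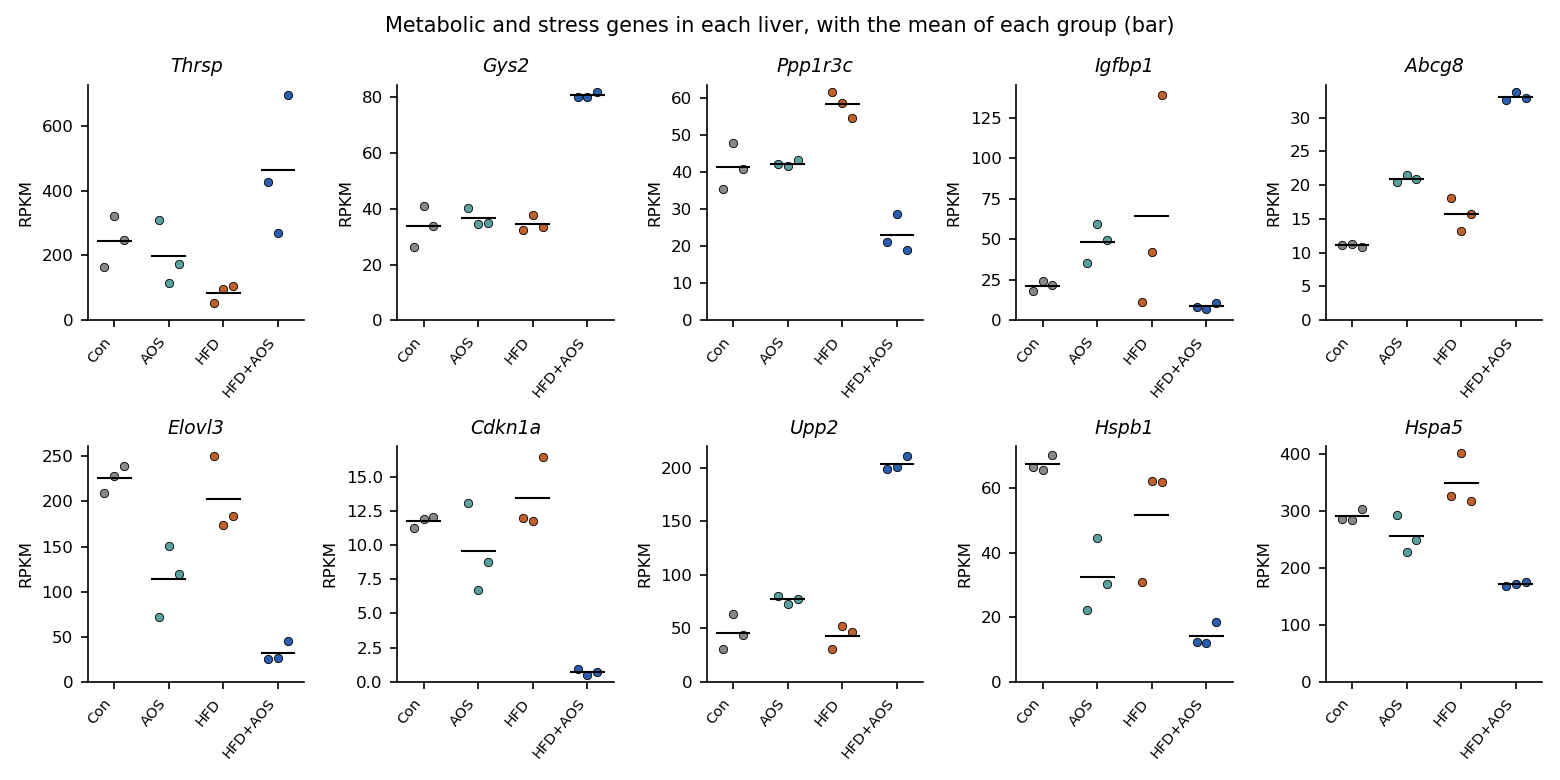
RPKM of 10 genes in each liver of the Con, AOS, HFD and HFD+AOS groups (linear axes from 0), with a bar at the mean of each group of 3. Gys2, Abcg8 and Upp2 were higher, and Ppp1r3c, Elovl3, Cdkn1a, Hspb1 and Hspa5 lower, in all 3 HFD+AOS livers than in any HFD liver, and Igfbp1 and Thrsp spread widely within a group.

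Chaperone transcripts were lower in HFD+AOS. Of 32 heat shock chaperone genes, 15 fell and 0 rose, 31 had a log2 fold change below 0, and the median was -0.51. Over all genes tested, 4.58% fell, 4.17% rose and 5391 of 10507 were below 0. Hspb1, a small heat shock protein, was at 30.9, 62.2 and 61.8 RPKM in HFD and at 12.3, 12.1 and 18.6 RPKM in HFD+AOS (log2 fold change -1.74, SE 0.32, adjusted p = 0.00477, limma). Hsp90aa1, which encodes the inducible HSP90, fell from 91.1, 187 and 190 RPKM to 47.8, 49.9 and 71.2 RPKM (log2 fold change -1.40, SE 0.31, adjusted p = 0.0133, limma). Hsph1, an HSP110, fell from 15.9, 25.9 and 35.0 RPKM to 8.08, 6.89 and 11.1 RPKM (log2 fold change -1.41, SE 0.32, adjusted p = 0.0142, limma), and Cct3, a subunit of the chaperonin of actin and tubulin, from 43.5 to 57.8 RPKM to 32.5 to 36.6 RPKM (adjusted p = 0.0230, limma). HFD replicate 1 was the lowest HFD liver for these genes. The count is not stable: 5 genes fell without the third Con and AOS livers, 1 passed without HFD+AOS replicate 1 or HFD replicate 3, 2 without HFD+AOS replicate 2 or HFD replicate 2, and 19 without HFD replicate 1. The median stayed between -0.65 and -0.45 in these fits. In the promoter windows, the heat shock element (GAA, any 2 bases, TTC, any 2 bases, GAA, searched on both strands) was found in 3 of 25 members with a window (12%) and in 0.37% of all tested genes with one. Over all genes higher and all genes lower in HFD+AOS, it was in 0.293% and 0.767% of windows. The list was drawn up by function, and a part of the element in the falls was not tested.

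Of 35 genes of ER stress and secretory chaperones, 12 fell and 1 rose, 31 were below 0, and the median was -0.34. Over all genes tested, 4.58% fell, 4.17% rose and 5391 of 10507 were below 0. Hspa5, the main chaperone of the endoplasmic reticulum (BiP), was at 327, 402 and 318 RPKM in HFD and at 168, 173 and 174 RPKM in HFD+AOS (log2 fold change -1.01, SE 0.25, adjusted p = 0.0242, limma). Hyou1, its nucleotide exchange factor, fell from 45.0, 51.8 and 39.8 RPKM to 18.5, 22.3 and 20.7 RPKM (log2 fold change -1.11, SE 0.28, adjusted p = 0.0252, limma), and Canx, a lectin chaperone, from 78.9 to 84.1 RPKM to 62.5 to 64.3 RPKM (adjusted p = 0.0147, limma). Hspa5 failed the test in 6 and Hyou1 in 7 of the 14 alternatives, both also without the third Con and AOS livers. The member that rose was Trib3, which is induced in ER stress. Only 1 member fell and 1 rose without the third Con and AOS livers, 1 member passed without HFD+AOS replicate 1 or 3 or HFD replicate 2 or 3, 2 without HFD+AOS replicate 2 and 14 without HFD replicate 1, while the median stayed between -0.39 and -0.31. Hspa5 is in both chaperone lists. The cold-induced RNA binders went the other way. Cirbp rose from 10.2, 6.35 and 6.06 RPKM to 14.1, 13.5 and 15.4 RPKM (log2 fold change 0.88, SE 0.17, adjusted p = 0.00562, limma) and Rbm3 from 10.49, 13.2 and 15.5 RPKM to 22.4, 18.5 and 23.2 RPKM (log2 fold change 0.68, SE 0.16, adjusted p = 0.0182, limma). Heat shock and cold-induced transcripts also cycle over the day in liver with body temperature, and the part of the hour in these results was not tested. Of 24 immediate early genes, which respond within minutes to handling and injury, 1 rose (Maff) and 1 fell (Ier5), with a median of -0.03. Their share changed, 8.33%, was near the 8.75% of all genes.

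**Figure D4:**
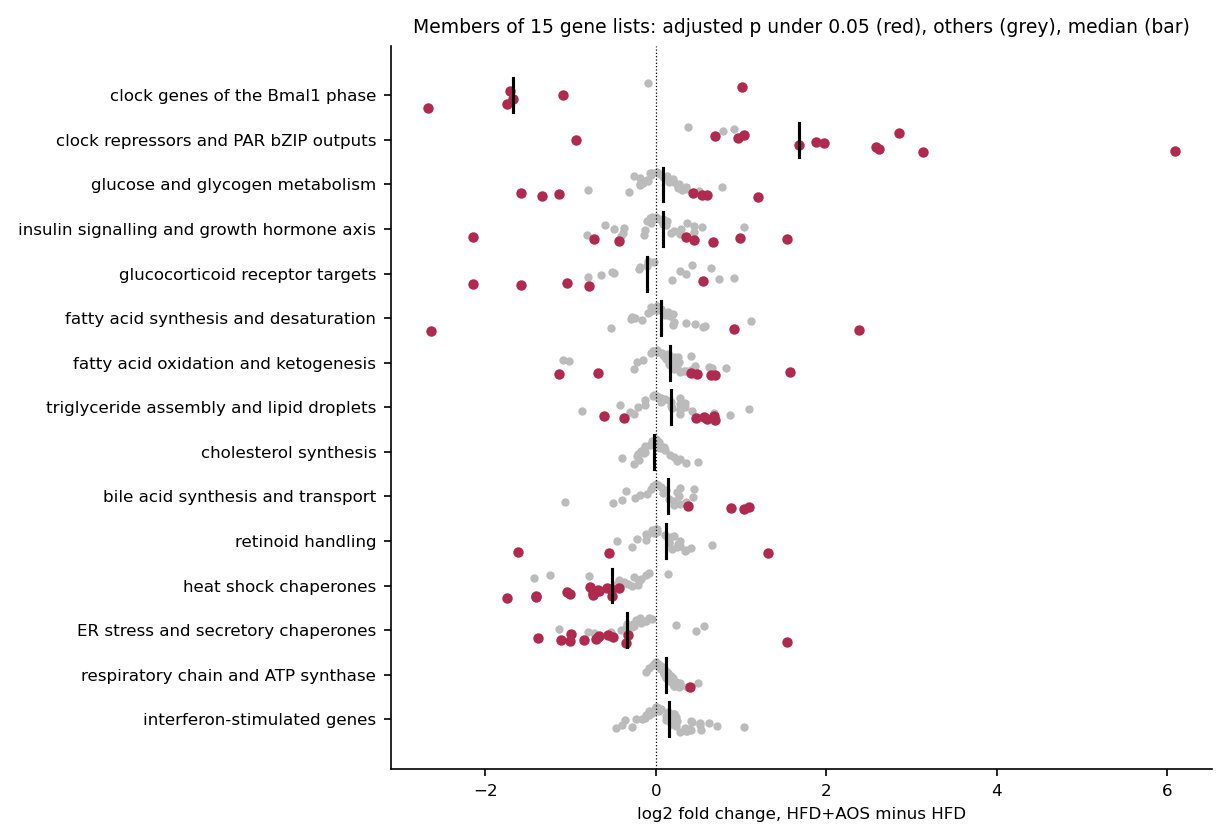
Log2 fold change, HFD+AOS minus HFD (x axis), of each member tested of 15 gene lists, with members at an adjusted p under 0.05 in red and a bar at the median of the list. The medians of the clock lists lay at -1.67 and 1.68 and those of the chaperone lists at -0.51 and -0.34, and the other medians between -0.10 and 0.18.

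The lists of other functions are read beside 4.17% of all genes higher and 4.58% lower. Of 40 cytochromes P450 and their regulators, 1 rose and 1 fell. Cyp2e1, which oxidises ethanol and ketones, rose from 3364, 3169 and 3044 RPKM to 4663, 4886 and 5282 RPKM (log2 fold change 0.63, SE 0.14, adjusted p = 0.0128, limma), and Cyp3a13 fell from 17.9 to 22.3 RPKM to 7.72 to 12.7 RPKM (adjusted p = 0.0295, limma). Cyp3a13 failed the test in 7 of the 14 alternatives, also without the third Con and AOS livers. Reads of near-identical genes such as the Cyp, Ugt and Mup families may have been shared among members, so their single values are uncertain. Of 16 pericentral genes, 3 rose (2 without the third Con and AOS livers) and 0 fell, namely Cyp2e1, Glul, which makes glutamine, and Gulo, which makes vitamin C in the mouse. Glul rose from 162 to 191 RPKM to 221 to 255 RPKM (adjusted p = 0.0324, limma) but failed the test in 7 of the 14 alternatives, among them the 6 livers alone and the fit without the third Con and AOS livers. Of 47 conjugating enzymes, 3 rose and 0 fell. Inmt, an amine methyltransferase, went from 158, 179 and 252 RPKM to 455, 452 and 515 RPKM (log2 fold change 1.30, SE 0.35, adjusted p = 0.0308, limma), with Sult1c2 and Ugt1a6b as the others. Inmt failed the test in 7 and Ugt1a6b in 8 of the 14 alternatives, both also without the third Con and AOS livers, and 1 of the 47 rose there. Of 33 antioxidant genes, 1 rose (Prdx6) and 0 fell.

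Of 58 genes of amino acid catabolism and the urea cycle, 4 rose and 2 fell, with a median of 0.13. Bckdha, a subunit of the dehydrogenase of branched-chain keto acids, rose from 97.4 to 122 RPKM to 142 to 158 RPKM (adjusted p = 0.00929, limma), and Amt, of the glycine cleavage system, fell from 61.8 to 80.3 RPKM to 44.4 to 49.5 RPKM (adjusted p = 0.0342, limma). Amt failed the test in 7 of the 14 alternatives, without the third Con and AOS livers and without any 1 of 5 of the 6 livers compared among them, and 2 of the 58 rose and 0 fell without the third livers. Of 28 iron genes, 2 fell and 0 rose, and both act in iron uptake. Tfrc, the transferrin receptor, fell from 5.50, 4.12 and 6.25 RPKM to 2.67, 2.42 and 2.60 RPKM (log2 fold change -0.81, SE 0.14, adjusted p = 0.00293, limma), and Slc11a2, an iron transporter, from 9.58, 10.53 and 9.01 RPKM to 6.66, 6.76 and 6.31 RPKM (log2 fold change -0.50, SE 0.10, adjusted p = 0.00767, limma). Both passed the test in the main fit and in all 14 alternatives. Tfrc was also the only one of 8 erythroid markers tested that passed the test.

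Few immune and secreted protein genes passed the test. Of 34 acute phase genes, 2 fell and 0 rose, with a median of -0.19. The fallers were fibrinogen chains: Fga went from 2078, 2692 and 2048 RPKM to 1387, 1480 and 1591 RPKM (adjusted p = 0.0302, limma) and Fgg from 2551 to 3438 RPKM to 1872 to 2102 RPKM (adjusted p = 0.0364, limma), and neither passed without the third Con and AOS livers. Of 41 complement and coagulation genes, 1 rose (F11) and 1 fell, and 0 did without the third Con and AOS livers (limma). None of 47 interferon-stimulated genes (0 by limma, 4 at an unadjusted p under 0.05) and none of 10 genes of MHC class II presentation (0 by limma, 1 at an unadjusted p under 0.05) passed the test, with medians of 0.15 and 0.25. By sign, 34 were above and 13 below 0 in the first list, and 9 above and 1 below in the second. The smallest unadjusted p values of these lists were in B2m (adjusted p = 0.0849, limma) and H2-Eb1 (adjusted p = 0.109, limma). H2-Eb1 was at 0.67, 0.20 and 0.27 RPKM in HFD and at 2.80, 3.26 and 2.45 RPKM in HFD+AOS. For both genes the groups did not overlap, as for 27.2% of all genes tested.

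Of 77 genes of the respiratory chain and ATP synthase, 1 rose (Uqcr11, which failed the test in 9 of the 14 alternatives, also without the third Con and AOS livers), but 72 had a log2 fold change above 0, with a median of 0.12. Of 79 cytosolic ribosomal protein genes, none changed (0 by limma, 1 at an unadjusted p under 0.05), with a median of -0.04, and the smallest unadjusted p was in Rpl29 (adjusted p = 0.0980, limma). Of 76 mitochondrial ribosomal protein genes, 2 rose (Mrpl14 and Mrps35) and 1 fell (Mrps18b), and Mrps35 and Mrps18b did not pass the test without the third Con and AOS livers. Of 36 proteasome genes, none changed (0 by limma, 11 at an unadjusted p under 0.05), with a median of -0.11, and the smallest unadjusted p was in Psmd2 (adjusted p = 0.0676, limma). Of sex-biased genes, 1 of 32 male-biased genes fell, which was Elovl3, and 2 of 15 female-biased genes rose, which were Rdh9 and Acot3, with medians of -0.11 and 0.79. Acot3, an acyl-CoA thioesterase, was at 0.14, 0.64 and 0.95 RPKM in HFD and at 7.34, 1.07 and 4.60 RPKM in HFD+AOS (adjusted p = 0.0485, limma) and passed the test in 4 of the 14 alternatives. Of the other livers, only AOS replicate 1 (1.01 RPKM) and A10-FMT replicate 2 (5.39 RPKM) reached an RPKM of 1. Acot3 thus met the filter for testing only through HFD+AOS, and its call adds no support.

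The contrast on the HFD was then set against AOS on the regular diet, with a test of the difference between the 2 contrasts. The difference passed the test for 53 genes (0.504%), and for 15 without the third Con and AOS livers. Several clock genes had fold changes near 0 with AOS on the regular diet. Arntl was at 11.2, 12.7 and 11.8 RPKM in AOS livers, so that its log2 fold change was 0.02 against Con, and the difference from that on the HFD was -2.70 (SE 0.31, adjusted p = 0.000698, limma). Ciart was at 0.45, 0.07 and 0.35 RPKM in AOS livers, with a difference of 3.26 (SE 0.28, adjusted p = 5.11e-05, limma), and Chka at 38.7, 44.7 and 41.1 RPKM, with a difference of -2.03 (SE 0.20, adjusted p = 0.000109, limma). Nr1d1 was at 30.7, 10.0 and 16.9 RPKM in AOS against 1.22, 3.68 and 2.72 RPKM in Con, a log2 fold change of 2.45 beside 2.86 on the HFD. Rgs16 had a log2 fold change of 2.21 on the regular diet beside 2.86 on the HFD, with AOS livers at 27.8, 2.11 and 11.6 RPKM. The difference between diets did not pass the test for Nr1d1 or Rgs16. The hour of killing is not given for these groups. A difference in hour between groups and a diet-dependent effect of AOS thus cannot be told apart.

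**Figure D5:**
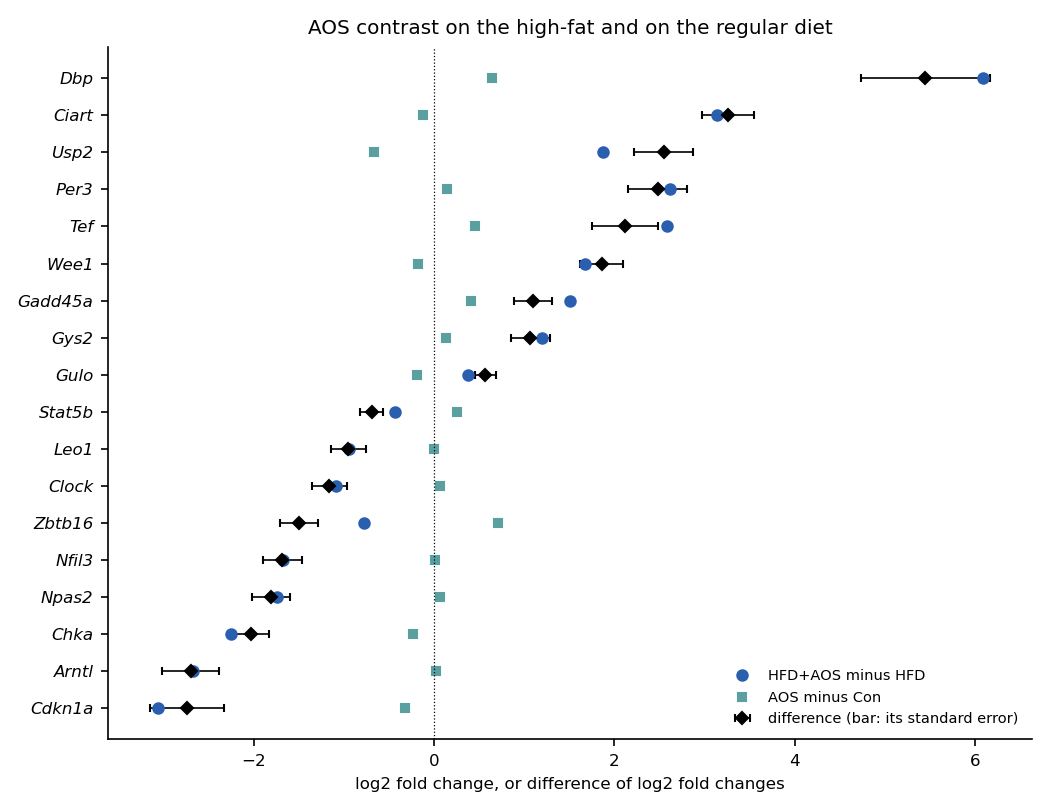
For 18 named genes whose AOS contrast differed between the diets, the log2 fold change HFD+AOS minus HFD (circles), AOS minus Con (squares), and the difference between them with its standard error (diamonds and bars). The squares lie between -0.67 and 0.71, and the differences go from -2.74 for Cdkn1a to 5.45 for Dbp.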

How the data were processed

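Liver RNA of 18 mice was sequenced on the Illumina HiSeq 2500, and the values used are RPKM, 1 column per liver, which the authors computed from their mapped reads and deposited rounded to 2 decimals. The study's methods name SOAPaligner with all hits of a read reported, and the submitters' processing notes name Bowtie 0.12.2 and the build mm10. How reads with several hits were shared among genes is not given in the sources used here. Read counts are not beside the values, so the study's own read-based test was not run.

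Genes that reached an RPKM of 1 in 3 or more of 18 livers were kept (10507 of 19057 lines, with 3 symbols on more than 1 line). Values were analysed as log2(RPKM + 1) with limma 3.58.1 in R 4.3.3, with 6 group means, a trended empirical Bayes prior, two-sided tests and Benjamini-Hochberg adjustment over all genes kept, and an adjusted p under 0.05 as threshold. An exact permutation test of 3 livers against 3 cannot go below 0.1. The AOS contrasts on both diets were compared as the difference of the contrasts in the same fit. Tables were made with pandas 2.3.3 and numpy 2.4.6, and figures with matplotlib 3.10.9, in Python 3.11.15. The fit was tested on simulated data.

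Genes were named by a rule: up to 10 with the largest non-overlapping change in each direction, up to 4 changed members of each function list (or the member with the smallest p), up to 5 with the smallest adjusted p of the difference between diets, and a set of fixed genes. A few genes that the rule names are not reported here. The members, the 33 function lists and the 13 marker lists were chosen with earlier results of these data known. The 14 alternatives were equal library medians, a pseudocount of 0.1, no low-value filter, the 6 livers alone, leaving out the third Con and AOS livers, a replicate block, no trend, array weights, and leaving out each of the 6 livers. Gene positions and promoters were taken from RefSeq, build GRCm38.p6, where 111 of 111 named genes were matched. Livers with the same number correlated in their deviations at 0.016, -0.177 and 0.225, and the labels tie nothing to the number, so the numbers were not taken as pairs.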

Additional observations from a re-analysis of the deposited data

Results flagged for a closer look

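For 18 named genes, the AOS contrasts on the HFD and the regular diet differed by a test of the difference itself. The test was limma, adjusted over all 10507 genes. As the hour of killing is not given, a difference in hour between groups and a diet-dependent effect of AOS cannot be told apart. The direct comparison on the regular diet rests on Con and AOS groups in which the third livers lay between the others, and the number of such genes over the whole table went from 53 to 15 without those livers. Among clock genes, the difference was 5.45 for Dbp, 3.26 for Ciart, 2.48 for Per3 and 2.12 for Tef, and -2.70 for Arntl, -1.81 for Npas2, -1.68 for Nfil3 and -1.16 for Clock. Of clock outputs, it was 2.55 for Usp2, 1.86 for Wee1 and -0.95 for Leo1. For Usp2, the fold change was 1.88 on the HFD and -0.67 on the regular diet. Of genes of growth arrest, it was -2.74 for Cdkn1a and 1.10 for Gadd45a. Of metabolic genes, it was -2.03 for Chka, 1.07 for Gys2 and 0.57 for Gulo. Of genes of hormone signalling, it was -0.69 for Stat5b and -1.50 for Zbtb16, whose fold change was -0.78 on the HFD and 0.71 on the regular diet. Without the third Con and AOS livers, Tef, Gys2, Stat5b, Clock, Gadd45a, Gulo and Leo1 no longer passed the test of the difference.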

How the results depend on the processing

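None of the 90 named genes called changed sign under the 14 alternatives, while Cyp7a1, Cyp8b1, Fasn and Nr0b2, which passed the test in no setting, did. Of the 90 named genes called, 42 were called in all of them and 48 lost the call in at least 1; the cause was not tested. The count of 919 genes became 435 with the 6 livers alone, 496 without the third Con and AOS livers and 1393 with array weights, and 320 to 1282 when 1 liver was left out. Genes higher numbered 659 with equal medians, 224 with the 6 livers alone and 261 without the third livers, and 164 to 522 with 1 liver left out. Genes lower numbered 297 without the low-value filter, 211 with the 6 livers alone, 235 without the third livers and 777 with array weights, and 150 to 760 with 1 liver left out. The share of calls that were higher was 47.7%, and 37.9% without HFD+AOS replicate 3, 65.4% without HFD+AOS replicate 2 and 58.9% without HFD replicate 2. The 35 genes at the study's cut-offs became 23 without the filter, 21 with the 6 livers alone and 20 without the third livers, and 17 to 34 with 1 liver left out. The 53 genes with a difference between diets became 15 without the third livers and 1699 with array weights, and 31 to 186 with 1 liver left out. The estimate of the array weights stopped before it converged. With the replicate block, 887 genes were called, 399 higher and 488 lower, of which 807 were shared with the 919. The depth is unknown, so how far it limits genes at low RPKM cannot be given.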

Other observations

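Further metabolic genes changed in the main fit and in all 14 alternatives. They belong to no part of the naming rule and were chosen after their values were seen. Ppara, which encodes the fatty acid receptor PPARα, was at 23.4, 21.3 and 17.2 RPKM in HFD and at 39.9, 35.1 and 40.3 RPKM in HFD+AOS (log2 fold change 0.87, SE 0.14, adjusted p = 0.00200, limma). Slc2a5, a fructose transporter, rose from 2.79, 2.54 and 2.38 RPKM to 6.18, 6.12 and 6.09 RPKM (log2 fold change 1.00, SE 0.12, adjusted p = 0.000133, limma), and Sord, which makes fructose from sorbitol, from 252 to 278 RPKM to 371 to 397 RPKM. Slc5a6, the transporter of biotin and pantothenate, rose from 1.34 to 1.48 RPKM to 4.35 to 4.54 RPKM (log2 fold change 1.18, SE 0.12, adjusted p = 4.93e-05, limma). Uox, which degrades uric acid, rose from 462 to 497 RPKM to 711 to 881 RPKM, Aqp9, a channel for glycerol, from 105 to 116 RPKM to 148 to 161 RPKM, and Npc1, which moves cholesterol out of lysosomes, from 22.0 to 23.0 RPKM to 35.1 to 36.0 RPKM.

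On the lower side, Slc30a10, a manganese exporter, went from 12.6 to 15.3 RPKM in HFD to 4.29 to 5.14 RPKM in HFD+AOS (log2 fold change -1.36, SE 0.18, adjusted p = 0.000307, limma). Clpx, a subunit of the mitochondrial protease ClpXP, fell from 117 to 153 RPKM to 45.9 to 51.4 RPKM (log2 fold change -1.38, SE 0.20, adjusted p = 0.000889, limma). Egfr, the receptor of epidermal growth factor, fell from 136 to 168 RPKM to 82.3 to 90.0 RPKM, and Ddc, which makes amines from aromatic amino acids, from 73.1 to 106 RPKM to 34.9 to 46.6 RPKM.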
